A study of Mus musculus with 3 samples.

Results

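The Slc25a genes encode the mitochondrial carrier family, and all genes whose symbol begins with Slc25a were taken as members, which gave 47 of the 31253 genes listed for the arcuate nucleus of the mouse hypothalamus. The tissue was micropunched from male C57BL/6JRj mice aged 5 to 6 weeks, dissociated with enzymes, and read as single cells with a droplet kit that captures the 3′ ends of transcripts and marks each captured molecule with a unique molecular identifier (UMI). Feeding began at weaning and differed between 3 groups: standard chow for 15 days (SC), 10 days of chow followed by 5 days of a high-fat high-sugar (HFHS) diet (5-day HFHS), or the HFHS diet for 15 days (15-day HFHS), where the labels give the diet as 58% HFHS. Tissue from 6 mice was pooled in each group, so there was 1 library per diet and the spread between mice was not measured. Mouse strain, sex, age and housing were the same in all groups.

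Mitochondrial carriers sit in the inner mitochondrial membrane and exchange nucleotides, phosphate, amino acids, keto acids, cofactors and ions between the cytosol and the matrix. They share a fold made of repeated pairs of membrane-spanning helices, and several substrates are served by closely related carriers that differ between tissues. In the brain the family is known for moving glutamate and aspartate into and out of mitochondria, for carrying cytosolic NADH equivalents inward through the malate-aspartate shuttle, and for the adenine nucleotide and phosphate carriers that feed ATP synthesis.

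The libraries held 7116, 6204 and 7823 barcodes, and 4825, 4041 and 5157 cells remained after filtering, with median depths of 5131, 5779 and 4130 UMIs. Cells were clustered without the Slc25a genes and named from marker genes, and comparison was limited to 10 classes that no library held with fewer than 100 cells: astrocyte-, neuron-, tanycyte-, ependymal-, microglia-, endothelial-, pericyte- and oligodendrocyte-like cells, oligodendrocyte precursor-like cells (OPC) and committed oligodendrocyte precursor-like cells (COP). Neuron-like cells carried transcripts typical of the arcuate nucleus in every library, with Agrp at 363, 1019 and 851 and Pomc at 343, 1255 and 248 CPM (a gene's UMIs scaled to the total UMIs of its class in that library). Of the 14023 kept cells, 47 barcodes occurred in more than 1 library.

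UMIs were summed over the cells of a class in a library and are given as CPM of that class and library, in the order SC, 5-day HFHS and 15-day HFHS unless a sentence says otherwise. Each UMI stands for 1 captured molecule, so levels were not divided by gene length. A member was called higher in a class when edgeR's quasi-likelihood test of that class against the mean of the other 9 classes gave a Benjamini-Hochberg adjusted p under 0.05 and a log2 fold of at least 1. The test had 1 value per class and library with the library as a term. Its error is how far class levels varied between the 3 libraries, which also differ in diet, beyond shifts common to all classes. All classes share 1 estimate of this spread, with 18 residual degrees of freedom, so it is not the spread of the named class alone. Log2 folds are given with their standard error (SE). Where most other classes are near 0 the fitted fold depends on the small count that edgeR adds, so the plain ratio to the pooled UMIs of the other classes is given beside it.

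Of the 47 members, 41 passed the filter on low counts and 31 of these were called higher in at least 1 class, where 76.1% of the 15572 genes tested were. There were 62 such member-class pairs, with 11 members called in 1 class, 10 in 2 classes and 10 in 3 or more. The other 10 tested members (Slc25a3, Slc25a4, Slc25a16, Slc25a23, Slc25a26, Slc25a28, Slc25a36, Slc25a39, Slc25a40 and Slc25a46) were called higher in no class. The 6 members left out by the filter had between 1 UMI (Slc25a54) and 80 UMIs (Slc25a31) over all 10 classes together, with Slc25a2, Slc25a41, Slc25a43 and Slc25a48 between them at 21, 3, 63 and 42 UMIs. Members were read against all genes in each class, because many genes differ between classes. In astrocyte-like cells 12 of 41 members (29.3%) were called higher, against 19% of all genes. In oligodendrocyte-like cells the count was 8 (19.5%) against 14.9%. In the other classes the members' share lay under that of all genes, except in pericyte-like cells, where 5 (12.2%) stood against 10.8%. The counts were 6 in neuron-like cells against 22.9%, 6 in ependymal-like cells against 23.2%, 6 in microglia-like cells against 18.5%, 5 in tanycyte-like cells against 21%, 5 in endothelial-like cells against 16.9%, 5 in COP against 13.2% and 4 in OPC against 16%.

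**Figure D1:**
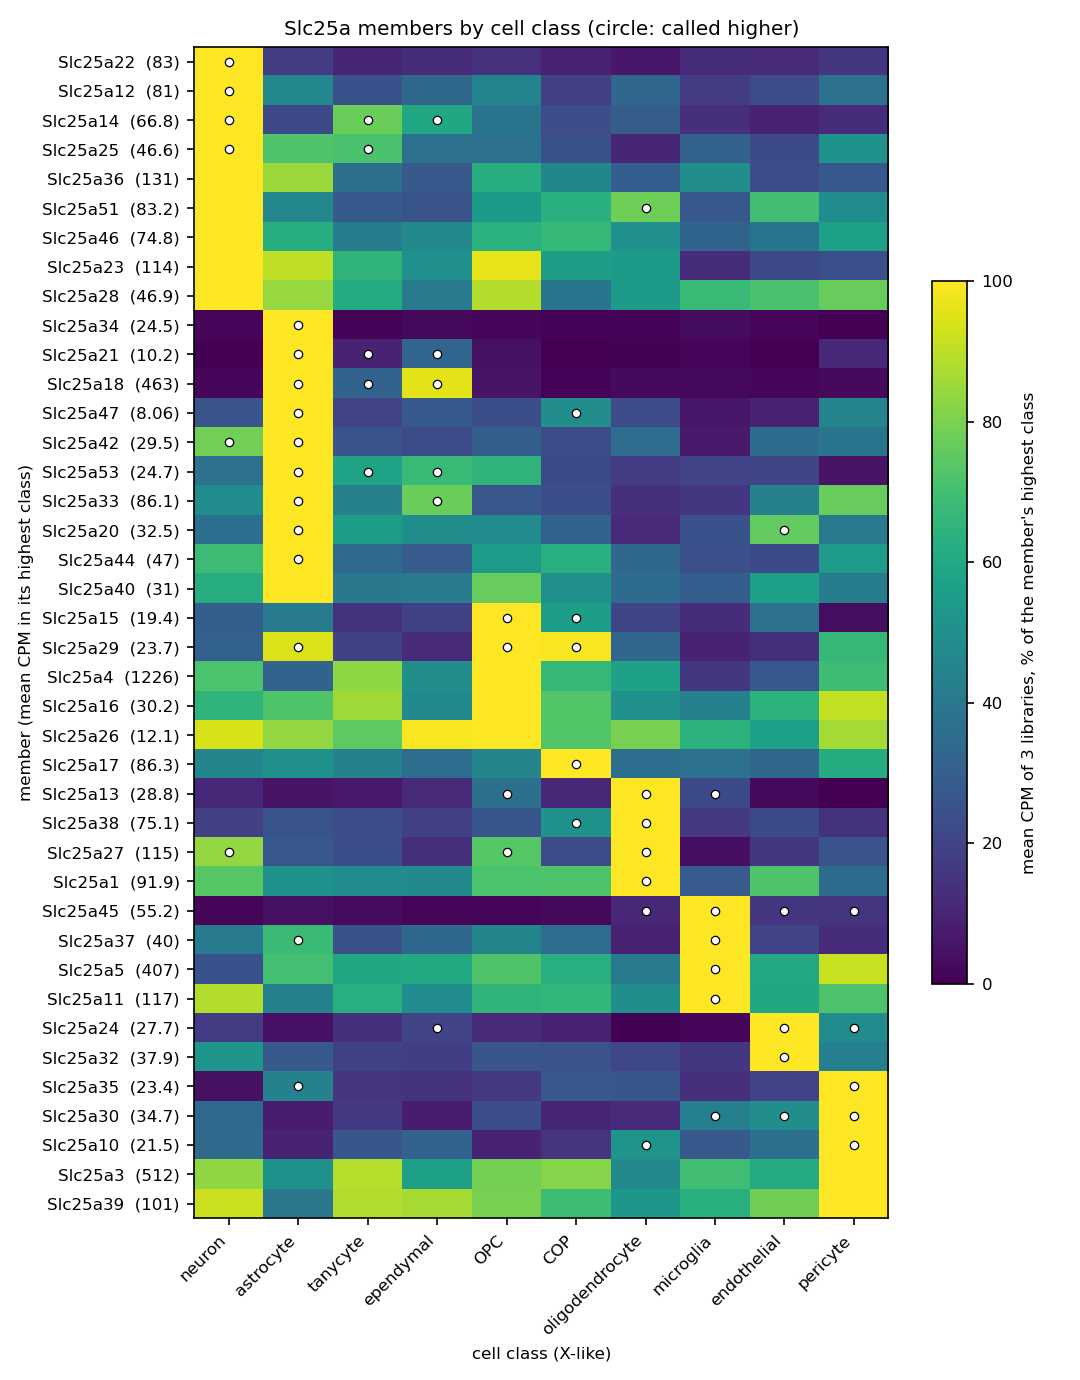
Heat map of 40 tested members (rows, with the mean CPM in each member's highest class in brackets) over 10 cell classes (columns). Colour gives the mean CPM of 3 libraries as a percentage of the member's highest class, and white circles mark the 61 pairs called higher by the test; Slc25a34 and Slc25a21 stand out in astrocyte-like cells, Slc25a18 in astrocyte- and ependymal-like cells, Slc25a22 in neuron-like cells, Slc25a13 in oligodendrocyte-like cells, Slc25a45 in microglia-like cells and Slc25a24 in endothelial-like cells.

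Slc25a34, Slc25a21 and Slc25a18 had the largest folds in astrocyte-like cells, and Slc25a18 was as high in ependymal-like cells. Slc25a34, a carrier whose substrate is not settled, stood at 21.1, 26.8 and 25.7 CPM, from 54, 102 and 98 UMIs. All 9 other classes together gave 37 UMIs of it, or 0.332 CPM, a plain ratio of 75.1. Its fitted log2 fold was 6.32 ± 0.29 (SE, adjusted p = 3.52e-19, edgeR's quasi-likelihood test with Benjamini-Hochberg adjustment), and it was also higher than each other class taken singly. Its mean in the other classes was 0% to 3.13% of that in astrocyte-like cells, beside medians of 0.82% to 9.45% for the astrocyte markers used for naming.

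Slc25a21, which carries oxoadipate and oxoglutarate and belongs to lysine and tryptophan breakdown, was called higher in astrocyte-, ependymal- and tanycyte-like cells. It reached 11.3, 10.8 and 8.39 CPM in astrocyte-like cells and 2.38, 4.09 and 3.49 CPM in ependymal-like cells, and the 2 ranges did not overlap. The log2 fold in astrocyte-like cells was 5.48 ± 0.38 (adjusted p = 1.54e-13, edgeR's quasi-likelihood test with Benjamini-Hochberg adjustment). In tanycyte-like cells it was at 0.815, 1.31 and 0.921 CPM, which is above the mean log level of the other classes but 0.577 times their pooled level, because the pooled level is set by the astrocyte-like cells.

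Slc25a18, a glutamate carrier that moves glutamate with a proton into the matrix, was the most abundant of these. It stood at 422, 510 and 456 CPM in astrocyte-like cells, 465, 463 and 406 CPM in ependymal-like cells, and 154, 161 and 121 CPM in tanycyte-like cells. The ranges of astrocyte- and ependymal-like cells overlapped (adjusted p = 0.92 for the difference between them, edgeR's quasi-likelihood test with Benjamini-Hochberg adjustment), and every library of both lay above every library of tanycyte-like cells. The log2 fold was 4.45 ± 0.11 in astrocyte-like, 4.47 ± 0.11 in ependymal-like and 2.74 ± 0.12 in tanycyte-like cells. In neuron-like, COP, endothelial-, microglia-, pericyte- and oligodendrocyte-like cells Slc25a18 was at 1.05% to 2.54% of its astrocyte level, beside medians of 0.82% to 1.92% for the astrocyte markers in the same classes. In OPC it was at 5.44%, beside a median of 2.58%. In tanycyte-like cells it was at 32.7% of its ependymal level, where the ependymal markers stood at a median of 28% (3.83% to 58.1%), and at 31.4% of its astrocyte level, beside 9.45% for the astrocyte markers. The part of RNA from those cells in the tanycyte value was not tested. Levels also varied within a class. The 3 tanycyte-like clusters held 205, 219 and 171 CPM, 276, 302 and 259 CPM, and 67.7, 64.5 and 53.7 CPM, so 1 of them (cluster 10) lay below the others in every library.

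The promoters of 4 members that led a class are shown because each gene was near 0 in most other classes. They are the 250 bases before and 50 after the start of transcription in RefSeq (build GRCm38.p6), read 5′ to 3′ on the gene's own strand: Slc25a18 (astrocyte- and ependymal-like cells) at chr6:120773518-120773817 on the plus strand, Slc25a34 (astrocyte-like cells) at chr4:141623785-141624084 on the minus strand, Slc25a24 (endothelial-like cells) at chr3:109122899-109123198 on the plus strand and Slc25a45 (microglia-like cells) at chr19:5877572-5877871 on the plus strand. Capitals mark a match to the motif of the estrogen-related receptors (ERR, written AAGGTCA), read on either strand.
Slc25a18: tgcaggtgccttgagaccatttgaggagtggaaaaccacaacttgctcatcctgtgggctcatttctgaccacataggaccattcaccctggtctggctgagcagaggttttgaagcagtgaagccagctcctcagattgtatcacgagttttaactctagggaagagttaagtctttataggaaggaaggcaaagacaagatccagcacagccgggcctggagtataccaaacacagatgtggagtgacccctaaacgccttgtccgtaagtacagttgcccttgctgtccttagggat
Slc25a34: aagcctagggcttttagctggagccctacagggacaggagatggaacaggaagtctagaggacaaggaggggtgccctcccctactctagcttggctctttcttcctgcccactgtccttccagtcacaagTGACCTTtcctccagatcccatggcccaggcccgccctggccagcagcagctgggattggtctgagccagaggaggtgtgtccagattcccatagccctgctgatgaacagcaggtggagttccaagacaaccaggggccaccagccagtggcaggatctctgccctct
Slc25a24: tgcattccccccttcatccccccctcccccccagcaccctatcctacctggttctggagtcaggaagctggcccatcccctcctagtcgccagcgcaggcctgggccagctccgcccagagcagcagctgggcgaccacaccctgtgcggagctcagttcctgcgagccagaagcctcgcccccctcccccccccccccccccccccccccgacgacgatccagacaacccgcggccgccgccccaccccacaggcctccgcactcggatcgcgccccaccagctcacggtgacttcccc
Slc25a45: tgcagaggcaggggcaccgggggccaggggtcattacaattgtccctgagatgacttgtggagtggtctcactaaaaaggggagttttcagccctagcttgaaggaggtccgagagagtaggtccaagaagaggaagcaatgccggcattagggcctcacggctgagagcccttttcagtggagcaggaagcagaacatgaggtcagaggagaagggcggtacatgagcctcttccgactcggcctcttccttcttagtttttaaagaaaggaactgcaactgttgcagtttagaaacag
The promoters of 36 members were in the table, as 46 sequences. AAGGTCA was found in 1 of these 46, that of Slc25a34, and in 4.72% of all 32851 promoters. CCGGAAG, a core of the GABPA motif, was found in 7 of 46 (15.2%, those of Slc25a3, Slc25a4, Slc25a17, Slc25a20, Slc25a25, Slc25a38 and Slc25a54) against 8.86% of all. GCATGCGC, a core of the NRF1 motif, was found in 2 of 46 (4.35%) against 2.71%, TTGGCA, a core of the nuclear factor I motif, in 2 of 46 against 14.1%, and GAGGAAGT, a core of the PU.1 motif, in 0 of 46 against 3.2%. Both strands were read for each, and CCGGAAG and GAGGAAGT share the letters GGAAG. A match is a description of these letters and not of a bound site.

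**Figure D2:**
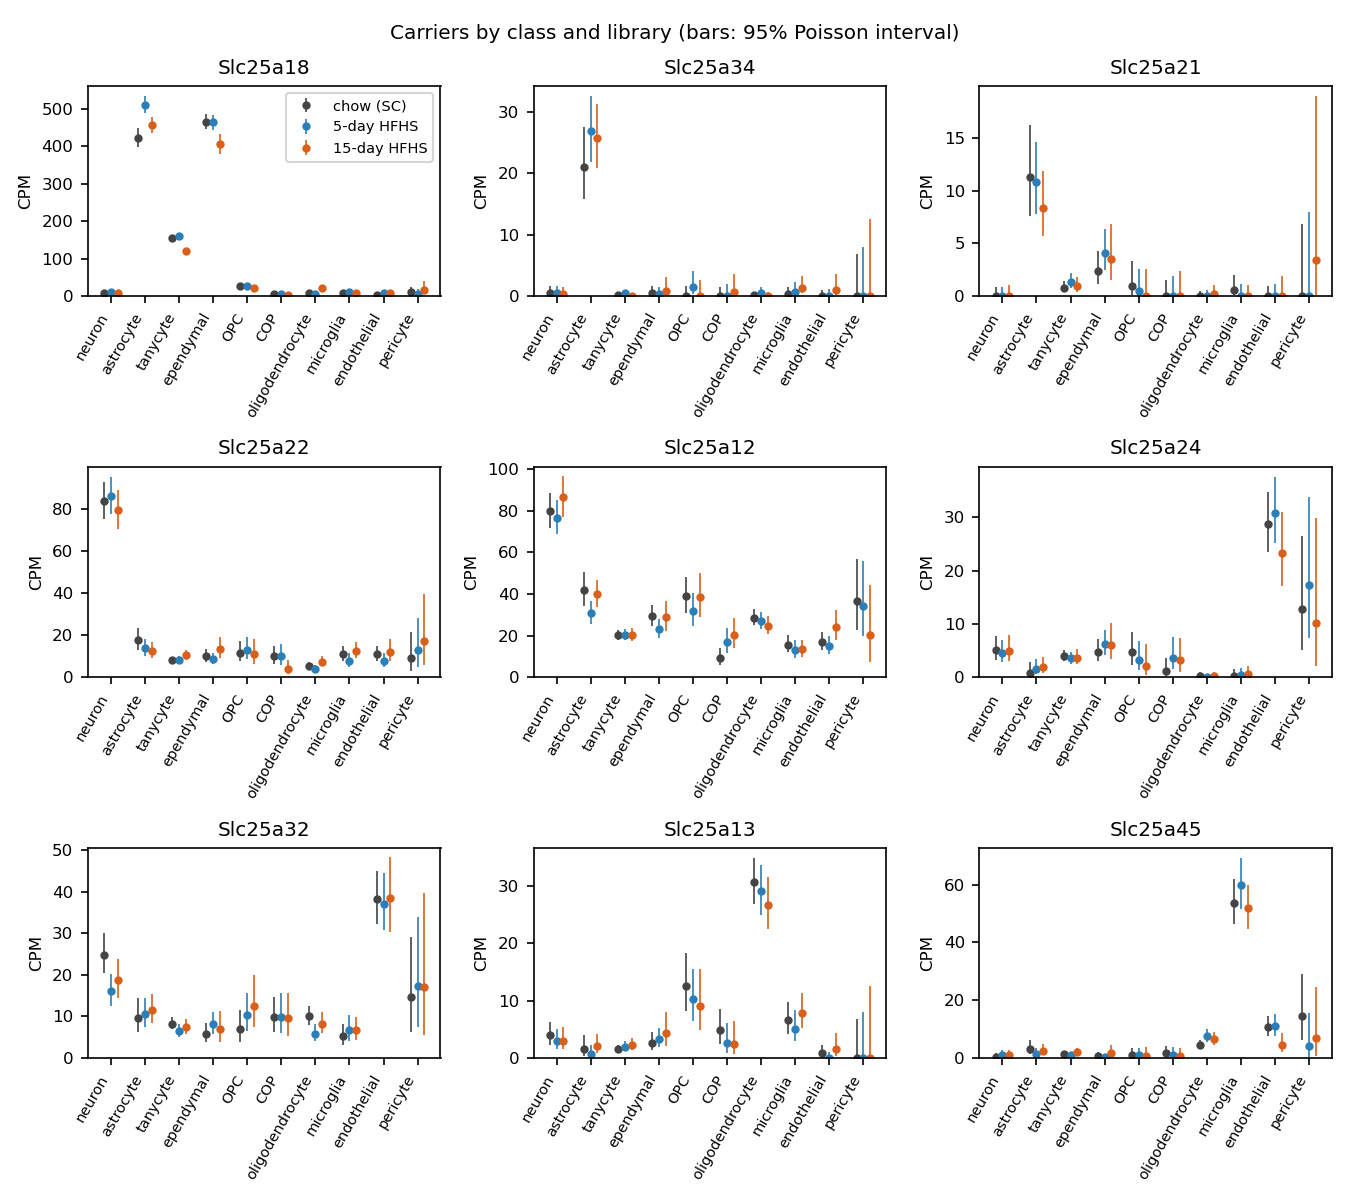
CPM (vertical axis, linear) of 9 carriers in the 10 cell classes (horizontal axis), with 1 point per library and bars for the exact 95% Poisson interval of counting. Slc25a18 is high in astrocyte- and ependymal-like cells and intermediate in tanycyte-like cells, and in the highest class of Slc25a34, Slc25a21, Slc25a22, Slc25a12, Slc25a24, Slc25a32, Slc25a13 and Slc25a45 all 3 libraries lie above every library of the other classes.

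A further 9 members were called higher in astrocyte-like cells with smaller folds. Slc25a47, known mainly from liver, reached 8.97, 7.10 and 8.13 CPM (log2 fold 2.10 ± 0.28). Slc25a42, which carries coenzyme A, reached 26.9, 31.3 and 30.4 CPM (1.75 ± 0.13), and was called in neuron-like cells too, at 28.1, 18.3 and 23.4 CPM. Slc25a53, a member without a settled substrate, stood at 28.1, 21.6 and 24.4 CPM (1.74 ± 0.15). It was also called in ependymal- and tanycyte-like cells, at 67.5% and 57.9% of its astrocyte level. Slc25a29, a carrier of basic amino acids, stood at 21.8, 23.4 and 21.8 CPM (1.57 ± 0.15). Slc25a33, a pyrimidine nucleotide carrier, stood at 75.6, 103.1 and 79.4 CPM (1.42 ± 0.10). It was called in ependymal-like cells too, at 77.3% of its astrocyte level. The adjusted p of these 5 lay between 1.08e-14 and 4.00e-08 (edgeR's quasi-likelihood test with Benjamini-Hochberg adjustment), and Slc25a47, Slc25a53 and Slc25a33 were higher in all 3 libraries than in any library of another class. The remaining 4 were Slc25a20, the acylcarnitine carrier of fatty acid oxidation (30.4, 30.0 and 37.2 CPM), Slc25a44, the branched-chain amino acid carrier (44.4, 43.7 and 53.0 CPM), the mitochondrial iron importer Slc25a37 and Slc25a35. The call of Slc25a35 was lost without the SC library, and that of Slc25a37 with cells limited to 10% mitochondrial UMIs.

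Slc25a29 and Slc25a47 are neighbours on chromosome 12 that are transcribed away from each other, with 162 bases between them in GENCODE on GRCm38 (Slc25a29 at chr12:108825873-108835883 on the minus strand, Slc25a47 at chr12:108836046-108856815 on the plus strand). This gap depends on the annotation, since RefSeq places the start of Slc25a47 at a different position. Both genes were called higher in astrocyte-like cells and in COP. Their levels did not follow each other over all classes. Slc25a29 was as high in OPC (31.5, 22.0 and 17.5 CPM) and COP (24.1, 24.6 and 21.6 CPM) as in astrocyte-like cells, whereas Slc25a47 in OPC stood at 2.78, 0.936 and 2.10 CPM, below all 3 astrocyte values. The call of Slc25a47 in COP rested on 7, 5 and 10 UMIs and was lost without any 1 of the 3 libraries.

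Neuron-like cells were marked by Slc25a22, the other glutamate carrier. It stood at 83.6, 86.1 and 79.3 CPM against 9.25 CPM in the other classes pooled, a ratio of 9 and a log2 fold of 2.65 ± 0.10 (adjusted p = 7.17e-23, edgeR's quasi-likelihood test with Benjamini-Hochberg adjustment). It was higher than each other class taken singly, and no library of another class reached the lowest neuron value. In the other classes it stood at 6.58% to 17.6% of its neuron level, above the medians of the neuron markers there (1.98% to 5.71%). Slc25a12 (aralar), an aspartate/glutamate carrier of the malate-aspartate shuttle, stood at 79.8, 76.6 and 86.5 CPM (1.35 ± 0.09, adjusted p = 1.58e-15) and likewise lay above every library of every other class. Slc25a14, an uncoupling-protein-like carrier, stood at 55.7, 72.8 and 71.9 CPM (1.52 ± 0.10) and was also called in tanycyte-like cells (54.9, 53.8 and 46.8 CPM) and ependymal-like cells (43.3, 41.1 and 34.9 CPM).

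Slc25a27, also uncoupling-protein-like, was called in neuron-like cells (114, 90.2 and 84.9 CPM, log2 fold 1.38 ± 0.08), OPC (87.6, 81.9 and 84.8 CPM) and oligodendrocyte-like cells (132, 106 and 107 CPM). Within each library its order was oligodendrocyte-like above neuron-like cells, although the ranges over libraries overlapped. Slc25a25, a calcium-regulated ATP-magnesium/phosphate carrier, stood at 51.5, 44.1 and 44.1 CPM in neuron-like cells (1.12 ± 0.10). It was also called in tanycyte-like cells, where the call held in 10 of 14 settings. Slc25a42 just passed the threshold in neuron-like cells (1.03 ± 0.14), and that call was lost in 5 settings, among them without the SC library and without shared barcodes. The neuron-like class was not uniform. Slc25a14 stood at 33.3, 34.0 and 30.3 CPM in cluster 18, which was led by Snhg11 and Meg3, and at 90.5, 97.1 and 95 CPM in cluster 20, which was led by Resp18 and Cartpt. Slc25a22 differed less between them, at 86.0, 96.5 and 105 CPM against 84.8, 98.6 and 69.4 CPM, and these ranges overlapped.

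Endothelial-like cells were marked by Slc25a24 and Slc25a32. Slc25a24, a calcium-regulated ATP-magnesium/phosphate carrier at chr3:109123149-109168457, stood at 28.8, 30.9 and 23.3 CPM against 2.98 CPM in the other classes pooled (log2 fold 3.84 ± 0.17, adjusted p = 7.53e-21, edgeR's quasi-likelihood test with Benjamini-Hochberg adjustment). Slc25a32, which carries folate or FAD, stood at 38.2, 37.1 and 38.5 CPM, a ratio of 4.02 to the other classes pooled (2.14 ± 0.13, adjusted p = 1.30e-16). Both were higher than each other compared class taken singly. Slc25a24 was also called in pericyte-like and ependymal-like cells, and the ependymal call was lost without the 5-day library. In vascular leptomeningeal-like cells, too few to be compared, Slc25a24 stood at 36.9, 35.2 and 34.4 CPM from 3, 4 and 11 UMIs. Slc25a45 (10.7, 11.1 and 4.56 CPM), Slc25a30 (17.7, 16.4 and 17.2 CPM) and Slc25a20 (26.1, 26.9 and 21.3 CPM) were called with log2 folds of 1.95, 1.49 and 1.19. Each stood higher in some other class. The call of Slc25a20 was lost with no doublets removed and with scaling to the total count.

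Pericyte-like cells had few UMIs of any member called there, since the class held 543443, 464666 and 293777 UMIs in all. Slc25a35, a relative of Slc25a34, was the only one that was higher than each other class singly, at 29.4, 23.7 and 17 CPM from 16, 11 and 5 UMIs (log2 fold 2.31 ± 0.32, adjusted p = 4.08e-07, edgeR's quasi-likelihood test with Benjamini-Hochberg adjustment). Slc25a30, an uncoupling-protein-like carrier, stood at 35, 45.2 and 23.8 CPM from 19, 21 and 7 UMIs (2.21 ± 0.26). It was also called in endothelial- and microglia-like cells. Slc25a10, the dicarboxylate carrier, stood at 31.3, 12.9 and 20.4 CPM from 17, 6 and 6 UMIs (1.83 ± 0.34). Slc25a24 was called in pericyte-like cells as well, at 12.9, 17.2 and 10.2 CPM from 7, 8 and 3 UMIs. Its mean there was 48.6% of that in endothelial-like cells, where the median endothelial marker stood at 0.52% of its endothelial level in pericyte-like cells; of the 18 markers Esam reached 47.1% and Emcn 29.5%, Cdh5 and Adgrl4 were at 0, and the other 14 lay between 0.117% and 5.39%. The call of Slc25a45 rested on 8, 2 and 2 UMIs and was lost without the SC library. Smooth muscle markers summed to 3523 to 3724 CPM in this class and pericyte markers to 36109 to 41484 CPM; the part of smooth muscle RNA in these values was not tested.

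In oligodendrocyte-like cells, which make myelin, Slc25a13 (citrin), the other aspartate/glutamate carrier, stood at 30.6, 29.1 and 26.7 CPM against 3.1 CPM in the other classes pooled (log2 fold 4.52 ± 0.18, adjusted p = 2.02e-21, edgeR's quasi-likelihood test with Benjamini-Hochberg adjustment). Slc25a38, the glycine carrier of heme synthesis, stood at 78.5, 70.9 and 75.8 CPM (2.64 ± 0.10), above every library of every other class. It was also called in COP, a call lost without the SC library. Slc25a27 has been given above (2.62 ± 0.07). Slc25a10, Slc25a45, the citrate carrier Slc25a1 and the NAD carrier Slc25a51 were called with log2 folds of 1.27 to 1.60. The scale matters for Slc25a51: in CPM its mean was highest in neuron-like cells (83.2 CPM), above the 67.6, 69.6 and 56.9 CPM of oligodendrocyte-like cells. Between edgeR's TMM scaling, used for the test, and scaling to the total count, the median gene moved by -0.53 on the log2 scale in oligodendrocyte-like cells and by 0.42 in neuron-like cells. The calls of Slc25a1 and Slc25a51 were lost with scaling to the total.

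In microglia-like cells Slc25a45, long listed among the carriers without a known substrate, stood at 53.8, 60 and 51.8 CPM against 2.89 CPM in the other classes pooled, a ratio of 19.1 (log2 fold 4.99 ± 0.16, adjusted p = 1.23e-24, edgeR's quasi-likelihood test with Benjamini-Hochberg adjustment). Its level in endothelial-, pericyte- and oligodendrocyte-like cells was 16%, 15.6% and 11.2% of that, where the median microglia marker stood at 0.1%, 0.46% and 0.34%. Slc25a37, the iron importer, stood at 42, 43.7 and 34.3 CPM (2.25 ± 0.13). Slc25a13, at 6.59, 5.11 and 7.8 CPM, was called here with 0.912 times the pooled level of the other classes, since oligodendrocyte-like cells set that pooled level. Slc25a5 and Slc25a11, the oxoglutarate carrier of the malate-aspartate shuttle (116, 123 and 114 CPM), were called with log2 folds of 1.2 and 1.11, and both calls were lost with scaling to the total count, which moved the median gene by -0.40 in this class.

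In the oligodendrocyte lineage before myelination, no member was higher in OPC than in each other class singly, and 1 was in COP. In OPC Slc25a15, the ornithine carrier of the urea cycle, stood at 17.6, 25.3 and 15.4 CPM (log2 fold 1.81 ± 0.21, adjusted p = 3.85e-09, edgeR's quasi-likelihood test with Benjamini-Hochberg adjustment), and Slc25a13 at 12.5, 10.3 and 9.11 CPM, less than the level in every library of oligodendrocyte-like cells. In COP Slc25a17, the cofactor carrier of the peroxisome, stood at 83.3, 99.9 and 75.6 CPM (1.27 ± 0.10, adjusted p = 1.49e-13) and was higher than each other class singly. Slc25a15 was called in COP too. The mean of Slc25a13 in OPC was 37% of that in oligodendrocyte-like cells, and in COP 11.6%.

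The share of each gene in pairs of related carriers differed between classes. Of the UMIs of both glutamate carriers, Slc25a18 made up 96%, 97.4% and 97.3% in astrocyte-like cells and 7.93%, 11% and 9.72% in neuron-like cells. Of the UMIs of both aspartate/glutamate carriers, Slc25a12 made up 95.3% to 96.6% in neuron-like cells and 95% to 97.5% in astrocyte-like cells. The same share was 48.3%, 48.1% and 48% in oligodendrocyte-like cells, 63.2% to 71.9% in microglia-like cells and 75.6% to 80.9% in OPC. In pericyte-like cells no UMI of Slc25a13 was seen. Slc25a12 thus gave most UMIs of its pair in 9 of 10 classes. Of the glutathione carriers, Slc25a39 gave more UMIs than Slc25a40 in all 10 classes and all 3 libraries, from 53.7% to 60.7% in astrocyte-like cells to 86.7% to 95% in pericyte-like cells.

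The adenine nucleotide carriers Slc25a4 and Slc25a5, which exchange ADP for ATP, and the phosphate carrier Slc25a3 had the most UMIs over the 10 classes pooled. The order differed by class: in astrocyte-like cells Slc25a18 had 1082, 1940 and 1741 UMIs, more than Slc25a4 (884, 1680 and 1475) in every library. Together Slc25a3, Slc25a4 and Slc25a5 made up 34.1% to 40.4% of all Slc25a UMIs in astrocyte-like cells and 62.5% to 67.7% in OPC and pericyte-like cells. In tanycyte-like cells their share was 63.7% to 64.4%. Slc25a4 was called in no class but ranged from 187, 206 and 208 CPM in microglia-like cells to 1179, 1273 and 1227 CPM in OPC. Slc25a5 stood at 419, 426 and 376 CPM in microglia-like cells and at 86.6, 114 and 110 CPM in neuron-like cells. Slc25a4 accordingly made up 30.9%, 32.6% and 35.6% of the UMIs of both genes in microglia-like cells and 88.4%, 89.6% and 90.1% in neuron-like cells, with astrocyte- and endothelial-like cells between them at 55.8% to 61.2%. Slc25a3 varied less, from 236, 243 and 244 CPM in oligodendrocyte-like cells to 512, 534 and 490 CPM in pericyte-like cells. Levels of Slc25a5 are uncertain because 48.5% of the 31-base words in the last 500 bases of its transcripts also occur in transcripts of other genes; for Slc25a37 and Slc25a40 the share was 39.9% and 31.6%, and for each of the other members under 10%.

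**Figure D3:**
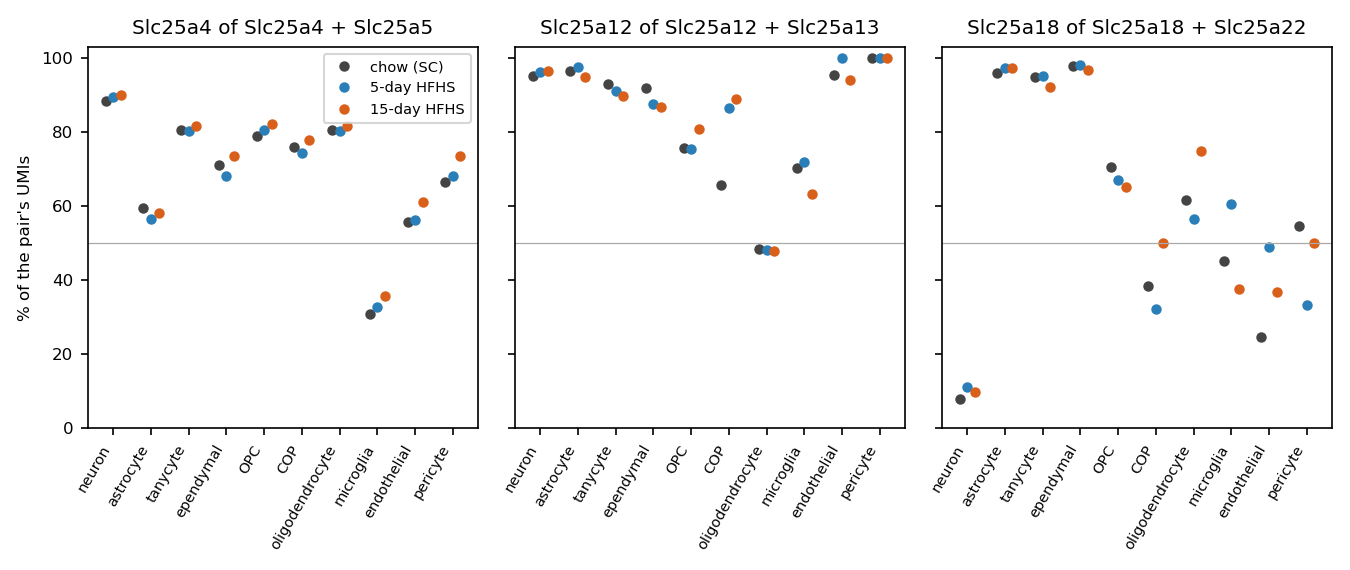
Share of a pair's UMIs that belong to the named gene (vertical axis, percent) in each of the 10 cell classes, with 1 point per library; the grey line marks equal counts. Slc25a4 falls below the line in microglia-like cells only, Slc25a12 lies just under it in oligodendrocyte-like cells, and Slc25a18 goes from over 96% in astrocyte-like cells to under 11% in neuron-like cells.

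The sum over all members was 3040, 3118 and 2898 CPM in OPC, the highest mean, and 1665, 1701 and 1614 CPM in microglia-like cells, the lowest. Endothelial-like cells, at 1683, 1675 and 1671 CPM, overlapped with microglia-like cells. Neuron-like cells had 2603, 2996 and 2915 CPM and overlapped with OPC and with tanycyte-, pericyte- and astrocyte-like cells.

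By role, both glutamate carriers, all 3 tested carriers of the malate-aspartate shuttle, all 3 citrate, dicarboxylate and oxodicarboxylate carriers and all 3 uncoupling-protein-like carriers were called in a class, where 76.1% of all genes tested were called in at least 1. So were the 4 tested amino acid carriers and the 5 tested members without a clear group. Of the iron and glutathione carriers 1 of 4 was called, of the cofactor and nucleotide carriers 6 of 9, and of the phosphate and ATP-magnesium/phosphate carriers 2 of 4. The outer-membrane member Slc25a46 was not called, at 74.8 CPM on average in neuron-like cells and 24.1 CPM in microglia-like cells.

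Genes that work beside the carriers were read against the same 76.1% of all genes called in at least 1 class. Of the relatives named outside Slc25a, 2 of 4 tested were called. Ucp3, an uncoupling protein known from muscle, stood at 16, 15 and 16.3 CPM in astrocyte-like cells. Ucp2 stood at 436, 473 and 495 CPM in microglia-like cells and at 458, 475 and 407 CPM in endothelial-like cells. Ucp2 was also called in tanycyte-, ependymal- and astrocyte-like cells. Of the other transporters of the inner membrane 15 of 18 were called, among them the sodium/calcium exchanger Slc8b1 (67.5, 68.9 and 75 CPM) and Sfxn5 (337, 351 and 331 CPM) in astrocyte-like cells, Mcub in endothelial-like cells and Micu3 in neuron-like cells. Slc8b1 was also called in microglia- and tanycyte-like cells, Sfxn5 in tanycyte- and ependymal-like cells, and Mcub in neuron- and microglia-like cells. Of the enzymes beside the carriers 18 of 24 were called. Bcat1, a branched-chain aminotransferase, stood at 56.9, 56.7 and 46.3 CPM in neuron-like cells, and Glud1, glutamate dehydrogenase, named after its values were seen, at 704, 763 and 731 CPM in astrocyte-like cells. Gpd1 was called in oligodendrocyte-like cells and Alas1 and Gpd2 in endothelial-like cells. Gpd1 was also called in COP and in astrocyte- and microglia-like cells, Alas1 in microglia-like cells and Gpd2 in astrocyte-like cells. Bcat1 was also called in OPC, COP and oligodendrocyte-like cells. Of the regulators of mitochondrial biogenesis 3 of 6 were called, with Ppargc1a at 106, 108 and 113 CPM in astrocyte-like cells. Ppargc1a was also called in ependymal-like cells and OPC. None of the 3 outer-membrane channels (Vdac1, Vdac2 and Vdac3) was called, and of the proteins that import carriers 5 of 12 were.

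The diets were compared without a test, since there was 1 library per diet. A member was taken as past the size rule in a class when both libraries together held at least 100 UMIs, the CPM differed at least 1.5 times and the 95% interval of the ratio, which covers counting error only, excluded 1.2. The 2 comparisons share the SC library, so they are not independent. In bulk sums of a class, a change in which cells the class holds and a change per cell cannot be told apart.

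With 5 days of HFHS diet, 225 member-class pairs had enough UMIs. Of these 1 was past the rule higher (0.444%, against 0.652% of all gene-class pairs) and 2 lower (0.889%, against 1.07%). With 15 days, 208 pairs had enough UMIs, and 2 were past the rule higher (0.962%, against 1.86%) and 4 lower (1.92%, against 2.27%). The members' shares lay under those of all genes in both comparisons. The median log2 ratio over the pairs was -0.01 at 5 days and -0.06 at 15 days. No member was at least 1.2 times higher, or lower, in 7 or more classes; Slc25a51 at 15 days came nearest, being at least 1.2 times lower in 5 of 9 classes.

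**Figure D4:**
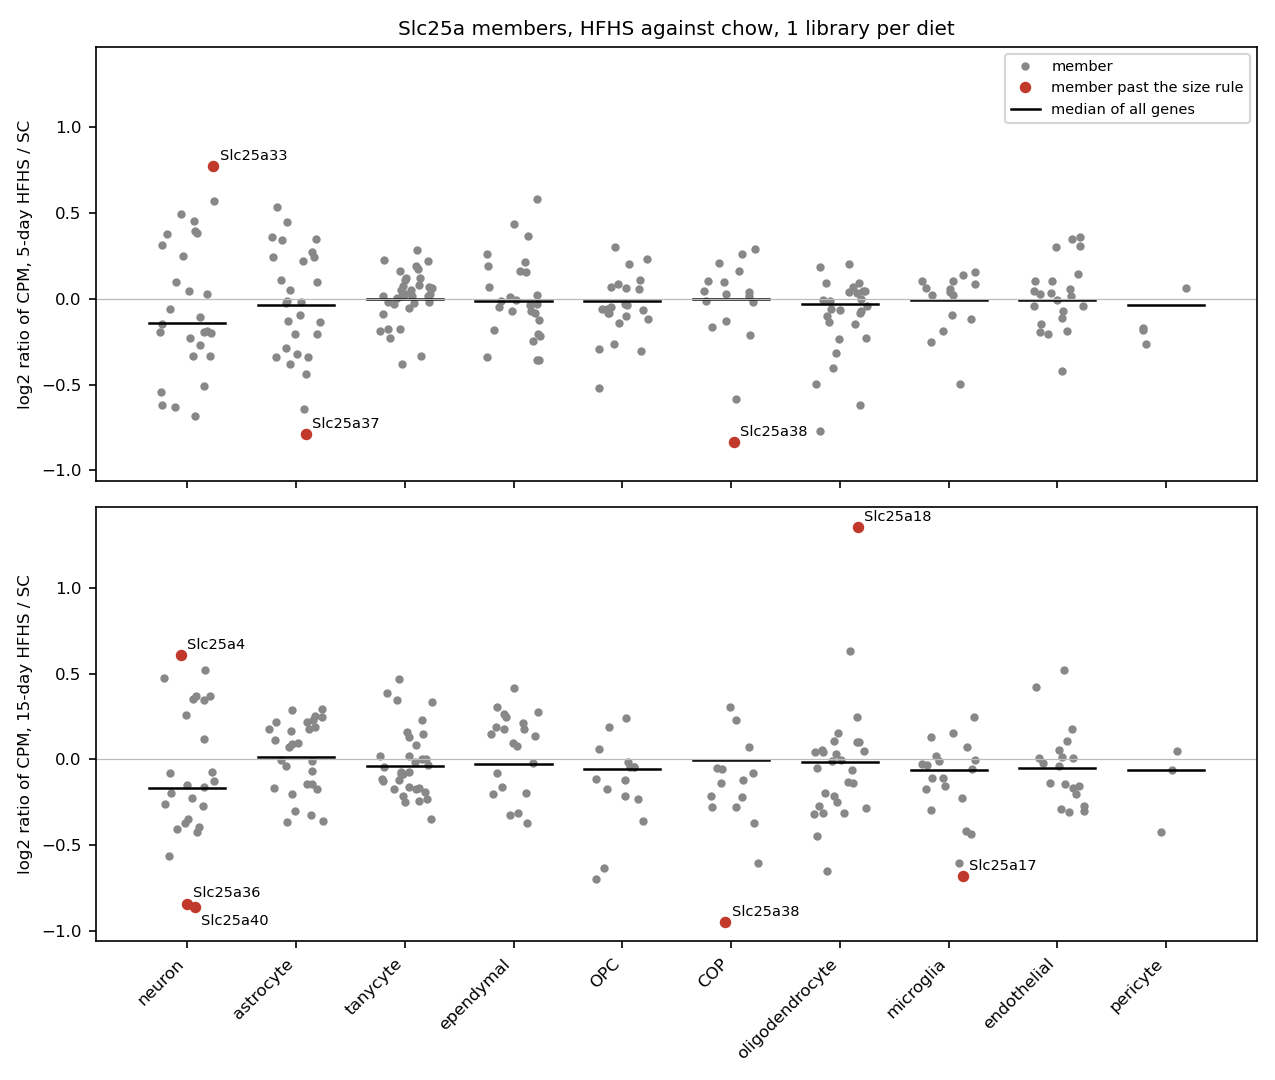
Log2 ratio of CPM to the SC library (vertical axis) for each member with at least 100 UMIs in a class, in the 5-day (top) and 15-day (bottom) HFHS libraries, by cell class. Black lines mark the median of all genes, and red points with names mark the 3 and 6 pairs past the size rule; the members' log2 ratios reach from -0.95 to 1.35.

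In neuron-like cells 4 members were past the rule in 1 of the comparisons. At 5 days this was 1 of 28 members higher (3.57%, against 2.49% of all genes in the class) and 0 lower (against 4.2%). At 15 days it was 1 of 26 higher (3.85%, against 4.34%) and 2 lower (7.69%, against 10.7%), so the counts were near or under those of all genes. Slc25a4 went from 658 CPM in SC to 979 in the 5-day and 1002 in the 15-day library (log2 ratio 0.57 and 0.61, the latter past the rule). Slc25a36, a pyrimidine nucleotide carrier, went from 174 to 122 and 97.0 CPM (-0.51 and -0.84, the latter past the rule). Slc25a40, a glutathione carrier, went from 26.0 to 17.9 and 14.3 CPM (-0.54 and -0.86, the latter past the rule). Slc25a33 went from 30.4 to 52.0 and 43.5 CPM (0.77 and 0.52, the former past the rule).

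The makeup of the neuron-like class moved with these values. Cluster 18 held 60.7%, 37.9% and 30.0% of the class's UMIs, and cluster 29, led by Npy and Agrp, held 4.44%, 30.4% and 19.9% from 5, 32 and 33 cells. The median mitochondrial share of the class was 11.9%, 8.44% and 7.29%. Slc25a4 stood at 292, 269 and 362 CPM in cluster 18 and at 1213, 1323 and 1244 CPM in cluster 20, and Slc25a36 at 245, 234 and 190 CPM against 69.1, 66.7 and 63.2 CPM. Slc25a40 was likewise higher in cluster 18 (34.4, 28 and 25.7 CPM) than in cluster 20 (14.3, 13.7 and 10.2 CPM). Slc25a33 was higher at 5 days within 3 clusters, from 19.1 to 29.8 CPM in cluster 18, from 47.1 to 67.5 CPM in cluster 20 and from 20.4 to 59.8 CPM (2 and 5 UMIs) in cluster 27, and not in cluster 29 (68 and 64 CPM). A fixed mix could take in only 3 of the 4 clusters, because cluster 29 had fewer than 20 cells in SC. With that mix in each library, the log2 ratios (5 days for Slc25a33, 15 days for the others) were 0.11 for Slc25a4, -0.32 for Slc25a36, -0.45 for Slc25a40 and 0.58 for Slc25a33, and none of the 4 was past the rule. With cells limited to 10% mitochondrial UMIs the ratios were, in the same order, 0.06, -0.20, -0.43 and 0.44, none past the rule; there the class also lacked the cluster led by Snhg11 and Meg3, which had too few markers to be named.

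Outside neurons, Slc25a38 in COP went from 55.1 CPM in SC to 30.9 and 28.6 CPM, from 135, 59 and 45 UMIs (log2 ratio -0.84 and -0.95, both past the rule). It was lower than SC in both COP clusters, at 81.4, 44.9 and 44.4 CPM and at 28.7, 14.7 and 13.6 CPM. A single cell gave 14.1%, 13.6% and 33.3% of its UMIs. When each cell was thinned to 1000 UMIs the 5-day ratio was 0.54, in the opposite direction. The UMIs left there were too few for the rule, so this value does not give a direction. The 15-day ratio was not past the rule with cells of at least 1000 genes (-0.47). When thinned (-0.16) it could not be, for the same lack of UMIs. Slc25a37 in astrocyte-like cells stood at 33.1, 19.2 and 29.4 CPM (-0.79 at 5 days, -0.17 at 15 days), and in a fixed mix of clusters the 5-day ratio was -0.56 and not past the rule. Slc25a17 in microglia-like cells stood at 35.7, 38.3 and 22.3 CPM (0.10 and -0.68), with a fixed-mix ratio of -0.73 at 15 days that was past the rule. It was not past the rule without shared barcodes (-0.67) or with median-of-ratios scaling (-0.62). Nor was it when thinned (-1.02), where the UMIs left were again too few for the rule. Over all 12 alternatives the ratio lay between -1.02 and -0.62. Of all genes with enough UMIs, 1.05% were past the rule lower in COP at 5 days and 1.83% at 15 days, 1.27% in astrocyte-like cells at 5 days and 1.25% in microglia-like cells at 15 days.

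Slc25a18 in oligodendrocyte-like cells went from 8.55 CPM to 4.9 and 21.8 CPM (log2 ratio -0.80 and 1.35, the latter past the rule, as were 4.08% of all genes there in that direction). Of the Slc25a18 UMIs in this class, cluster 21 gave 31 of 64 in SC, 0 of 30 in the 5-day library and 97 of 117 in the 15-day library. Cluster 21 was led by Cga and hemoglobin genes beside Mag, Mog and Opalin and held 32, 0 and 58 cells. The identity of that cluster is in doubt: it met the naming rule with 5 oligodendrocyte markers, but with cells of at least 1000 genes a cluster led by Cga, Chga and Cck (30, 0 and 67 cells) was named neuron-like. In the other 3 clusters Slc25a18 stood at 4.35, 5.44 and 5.79 CPM (cluster 15), 5.26, 3.75 and 2.72 CPM (cluster 17) and 4.32, 2.65 and 0 CPM (cluster 26). Markers of several other cell types were also highest in the 15-day library in this class. Ependymal markers summed to 164, 87.9 and 425 CPM, astrocyte markers to 366, 330 and 777 CPM and tanycyte markers to 64.1, 22.9 and 147 CPM, with all 14, all 18 and all 12 detected in each library. Microglia markers summed to 131, 106 and 422 CPM, endothelial markers to 42.5, 27.8 and 192 CPM, neuron markers to 605, 318 and 829 CPM and pars tuberalis markers to 8.28, 5.55 and 207 CPM. Their part in the result was not tested. The log2 ratio was 0.11 with a fixed mix of clusters, -0.42 with cells limited to 10% mitochondrial UMIs, -0.16 with cells of at least 1000 genes and 0.29 with no doublets removed. These 4 values come from a class that lacks cluster 21 or the cluster most like it by its leading genes. The fixed mix leaves out clusters 21 and 26, each with fewer than 20 cells in a library. In the other settings the naming rule left the like cluster out of the class. It was unnamed at 10% mitochondrial UMIs, neuron-like with at least 1000 genes and red blood cell-like with no doublets removed.

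The related genes were counted by the same rule. At 5 days Ucp2 and Timm13 were past it, both higher in neuron-like cells, and at 15 days 6 pairs were higher and 4 lower, 7 of these 10 in neuron-like cells, where 1434 of the 3049 pairs of all genes past the rule also lay (47%). The shares were 1.25% higher and 0.832% lower of 481 related pairs at 15 days, against 1.86% and 2.27% of all pairs. Of the enzymes beside the carriers 2 pairs of 172 were past the rule at 15 days, both lower (Crat in neuron-like cells, Mthfd2 in oligodendrocyte-like cells), and 0 of 176 at 5 days. In oligodendrocyte-like cells Ucp2 went from 5.61 to 26.9 CPM and Sfxn5 from 15.8 to 27.8 CPM at 15 days, in the class and library where Slc25a18 was higher.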

How the data were processed

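Droplet single-cell RNA-seq was read from 3 pooled libraries, 1 per diet. The values are whole-number UMI counts, not normalized, as the authors deposited them; Cell Ranger, SAMtools and Scanpy 1.4.4 on GRCm38 are named in the submitters' processing notes, while the annotation behind the counting is not given in the sources used here. The libraries held 59315940 (SC), 52735770 (5-day HFHS) and 43193012 (15-day HFHS) UMIs.

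Kept barcodes had 500 or more genes and no more than 20% mitochondrial UMIs, and the highest Scrublet scores were removed as doublets at 0.8% per 1000 barcodes (291, 211 and 344 barcodes), because the automatic call marked 0% of the SC library. With Scanpy 1.11.5, 3000 variable genes without the Slc25a genes, 40 principal components and 15 neighbours gave 34 Leiden clusters (resolution 1), of which 29 were named X-like from at least 3 markers among the 50 leading genes. None of the members was among the variable genes when they were left in. UMIs were summed per class and library.

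Classes were compared with edgeR 4.0.16 (R 4.3.3) after filterByExpr and TMM scaling, with class and library as terms, on 15572 genes; the procedure was tested on simulated data with known changes. P-values are set against the spread of class levels over these 3 libraries, beyond shifts common to all classes. That spread is estimated from all classes together, and the libraries also differ in diet. Diets were compared by CPM ratios with exact conditional-binomial intervals and single levels carry exact Poisson intervals, all at 95% and for counting error only. Positions and shared words came from GENCODE on GRCm38, promoters from RefSeq on GRCm38.p6. Alternatives covered the clustering, cell filters, doublets, depth, scaling, filter on counts, DESeq2 1.42.0, leaving out a library and, chosen after seeing the data, leaving out shared barcodes.

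Members are all genes whose symbol begins with Slc25a. Values per library are printed for up to 8 members by fold in astrocyte-, neuron-, pericyte- and endothelial-like cells, up to 3 in each other class, all past the diet rule, and up to 4 related genes per list; other members are named where a pair, position or group is described. A member and a related gene are counted but not otherwise reported here. The members, marker lists, related lists and tests were chosen with earlier results of these data known. The motifs, the pairs of related members and the neighbouring genes were chosen after the values were seen.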

Additional observations from a re-analysis of the deposited data

Results flagged for a closer look

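Some cell classes were too small for the comparison. All 47 members were screened in macrophage-, smooth muscle-, vascular leptomeningeal- and red blood cell-like cells. With at least 3 UMIs in each library, 5 member values lay above all 10 compared classes in each of the 3 libraries. These differences were not tested. The same screen was not run on all genes, so the 5 cannot be read as a trait of the family. In smooth muscle-like cells (21, 12 and 26 cells in SC, 5-day and 15-day HFHS) Slc25a5 stood at 530, 648 and 472 CPM and Slc25a3 at 791, 830 and 528 CPM. In vascular leptomeningeal-like cells (11, 18 and 59 cells) Slc25a24 stood at 36.9, 35.2 and 34.4 CPM from 3, 4 and 11 UMIs, and Slc25a29 at 36.9, 44.0 and 34.4 CPM from 3, 5 and 11 UMIs. In red blood cell-like cells (5, 9 and 2 cells) Slc25a39 stood at 173, 157 and 325 CPM from 11, 12 and 3 UMIs.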

How the results depend on the processing

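Of the 62 member-class pairs, 43 were called under each of 14 alternatives that tested them. The comparison with every other class singly is not among these 14 and is given next. When each cell was thinned to 1000 UMIs, 24 of the 62 were not tested, so for 20 of the 43 that alternative gave no value. Counts of members called higher than every other class singly were 6 in astrocyte-like, 2 in neuron-like, 1 in pericyte-like and 2 in endothelial-like cells and 11 pairs in the other classes, against 12, 6, 5, 5 and 34 against the mean of the others. Calls against every other class singly were not counted over all genes, so these counts have no share beside them. Scaling to the total count gave 10 calls against the mean of the others in neuron-like cells. Between TMM and total-count scaling the median gene moved by 0.43 in OPC, 0.42 in neuron-like, 0.26 in pericyte-like, -0.20 in endothelial-like, -0.40 in microglia-like and -0.53 in oligodendrocyte-like cells, on the log2 scale. Thinning to 1000 UMIs gave 1 in pericyte-like cells (0 shared with the 5), 3 in endothelial-like cells and 17 in the other classes, with fewer genes tested. Leaving out 1 library gave 13 to 16 in astrocyte-like, 5 to 6 in neuron-like, 4 to 6 in pericyte-like, 5 to 6 in endothelial-like cells and 32 to 33 in the other classes.

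The diet counts depended on the processing. The 3 pairs at 5 days became 1 with at most 10% mitochondrial UMIs, 5 with no doublets removed, 1 when thinned (0 shared), 6 with median-of-ratios scaling, 14 with equal weight for every cell (2 shared) and 1 with a fixed mix of clusters, which left out clusters with fewer than 20 cells in a library (1 of 4 in neuron-like, 2 of 4 in oligodendrocyte-like and 1 of 2 in endothelial-like cells). The 6 pairs at 15 days became 2, 2 (thinned, 1 shared), 10 (equal weight, 3 shared) and 3 (fixed mix, 2 shared) under those settings. Median-of-ratios scaling turned the split at 5 days from 1 higher and 2 lower to 4 higher and 2 lower. Without shared barcodes the counts were 4 (3 shared) and 4 (all shared). Reversed was Slc25a38 in COP at 5 days when thinned (0.54 on the log2 scale), where the UMIs left were too few for the rule. Also reversed was Slc25a18 in oligodendrocyte-like cells at 15 days, with at most 10% mitochondrial UMIs (-0.42) or at least 1000 genes (-0.16). In these settings the oligodendrocyte-like class lacked a cluster like cluster 21. Where the text gives no value that shows it, the cause was not tested. Pericyte-like cells had the fewest UMIs in total of the 10 classes in each library. No paired analysis was possible because the labels give 1 library per diet and no replicate numbers shared between diets.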
